A study of Mus musculus with 20 samples.

Results

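RNA of bone marrow LSK cells was compared with RNA of bone marrow megakaryocyte-erythroid progenitors (MEP) of the same Bcor-/- mice. The comparison held 4 of the 20 libraries of the series, an LSK and a MEP library of each of 2 Bcor-/- replicates, chosen by genotype and cell type and matched by the mouse names in the labels. LSK are lineage-negative Sca1+ Kit+ cells and hold the stem and multipotent progenitor cells. MEP were sorted as lineage-negative, Sca1-, Kit+, CD34- cells with little or no Fcγ receptor II/III. All animals were C57BL/6. In the Bcor-/- mice a conditional allele had lost internal exons through Cre under the Mx1 promoter, which interferon switches on and which was induced with pIpC. Mx1-Cre is active in many interferon-responsive cells and not in blood cells alone. The label of Bcor-/- replicate 1 names 2 mice and that of replicate 2 names 1 mouse. Ages were not given in the labels. Control libraries were named 3A_XY_WT, which shares 3A_XY with the Dnmt3a-/- name 3A_XY_Cre, while Bcor-/- libraries were named WT_BCOR_Cre. The labels did not explain what these names mean for the alleles or the Cre status of the control mice. Any pIpC treatment of the control mice was not given either. The wild-type (WT) mice, 3 LSK and 3 MEP libraries, served for comparison, and 6 libraries of Dnmt3a-/- mice entered the fit so that the spread rested on 8 of the 10 replicates of the series. Each replicate is called a mouse hereafter, also the one whose label names 2. The question was which differences between LSK and MEP remain in mice labelled Bcor-/-.

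Bcor is the Bcl6 corepressor and a subunit of the Polycomb complex PRC1.1, which places a ubiquitin mark on histone H2A at CpG-rich promoters. Stem and multipotent cells rely on transcription factors such as Meis1, Hlf, Mecom and the Hox proteins. Erythroid commitment is driven by Gata1 and Klf1, which switch on the genes of the red cell membrane, heme synthesis and iron uptake, while Gata2 is exchanged for Gata1. Granule protease genes are typical of granulocyte-monocyte progenitors, which lack Sca1 and carry Fcγ receptors.

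Levels are FPKM, that is fragments scaled to transcript length and to the size of the library. A stage difference is LSK minus MEP of the same mouse on the log2(FPKM + 1) scale, centred on that mouse's median, so a positive value means higher in LSK. Errors of differences are standard errors of the fit (n = 2 for Bcor-/-, n = 3 for WT). A gene is called where its adjusted p was under 0.05 and its fold above 1.5. LSK and MEP values came from separate tables that may have been normalised separately, which holds for every level and difference set across them. In bulk RNA, fewer cells of a type and less RNA per cell cannot be told apart. Read depth is unknown, since the tables hold no counts.

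The cell type labels were checked against the surface antigens of the sort. Ly6a, which encodes Sca1, was at 107 and 31.1 FPKM in Bcor-/- LSK and 1.80 and 0.326 FPKM in Bcor-/- MEP. Cd34 was at 391 and 265 FPKM in LSK and 56.9 and 30.0 FPKM in MEP, where the WT MEP libraries held 5.43 to 60.6 FPKM. Kit, shared by both gates, was at 118 and 123 FPKM in LSK and 67.6 and 79.0 FPKM in MEP. The Fcγ receptor gene Fcgr3 was at 131 and 204 FPKM in Bcor-/- LSK, above the 16.6 to 43.2 FPKM of WT LSK, and at 7.07 and 2.71 FPKM in Bcor-/- MEP. These antigens chose the cells, so their differences are no findings. Bcor transcript itself was at 22.4 and 23.2 FPKM in Bcor-/- LSK and 19.5 and 22.4 FPKM in Bcor-/- MEP, against 32.4, 31.1 and 29.5 FPKM in WT LSK and 26.9, 21.3 and 22.4 FPKM in WT MEP. Its stage difference did not pass the test. Both Bcor-/- LSK values were below every WT LSK value, while the MEP ranges overlapped. The study describes the transcript left by the deletion as unstable and as not detected by PCR in LSK. It also reports the recombined allele in bone marrow by PCR, and loss of Bcor protein in lineage-negative marrow cells by western blot. The gene-level values here stood nearer to WT than that account of the transcript. They are another measure than that PCR and do not show the protein. Gene-level values do not show the deleted exons alone, so the deletion itself was not checked here, and Bcor-/- means libraries so labelled throughout.

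The genes furthest above LSK in Bcor-/- MEP were largely erythroid. Of the 12 largest MEP-higher differences, 5 genes had an entry in the promoter table of RefSeq (assembly GRCm38.p6, 250 bases before to 50 after the start), and 3 of these held the GATA factor motif TGATAA, searched on both strands. The promoters of Rhag, Klf1 and Ermap are shown because these 3 genes, 2 of the red cell surface and the erythroid factor, were MEP-higher in both genotypes and each held 1 match, in capitals, in the orientation TTATCA. They lie at chr17:40810899-40811198 (plus strand), chr8:84901732-84902031 (plus strand) and chr4:119189946-119190245 (minus strand).
Rhag: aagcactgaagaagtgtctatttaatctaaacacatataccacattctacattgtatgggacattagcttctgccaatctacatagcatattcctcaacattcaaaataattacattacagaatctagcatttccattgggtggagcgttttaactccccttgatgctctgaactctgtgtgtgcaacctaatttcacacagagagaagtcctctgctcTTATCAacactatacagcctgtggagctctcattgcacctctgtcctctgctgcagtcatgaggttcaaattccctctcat
Klf1: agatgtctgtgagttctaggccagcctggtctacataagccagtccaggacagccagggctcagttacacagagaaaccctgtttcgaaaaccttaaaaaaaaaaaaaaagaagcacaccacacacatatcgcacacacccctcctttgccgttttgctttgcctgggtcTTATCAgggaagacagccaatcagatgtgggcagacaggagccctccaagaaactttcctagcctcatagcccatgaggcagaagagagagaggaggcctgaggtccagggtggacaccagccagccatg
Ermap: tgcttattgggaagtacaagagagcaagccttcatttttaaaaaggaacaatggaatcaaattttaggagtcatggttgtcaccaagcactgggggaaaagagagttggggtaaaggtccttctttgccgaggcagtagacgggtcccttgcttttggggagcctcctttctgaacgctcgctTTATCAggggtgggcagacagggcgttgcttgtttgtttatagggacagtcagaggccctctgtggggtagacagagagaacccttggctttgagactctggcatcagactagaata
TGATAA occurred in 9.05% of all 32851 promoters of the table, in 5.17% of the 1761 promoters of genes called MEP-higher in Bcor-/- mice and in 4.94% of the 2773 promoters of genes called LSK-higher. Also searched on both strands were AGATAA, another GATA motif, in 11.2% of all promoters, CCACACCC, a Klf1 motif, in 3.56%, CCGCCC, a GC box, in 35.7%, and CAGCTG, an E-box, in 16.3%. None of these was in the promoters of those 5 genes, among which Prss50 had 2 entries. Among the 12 largest LSK-higher genes, 9 had an entry. None of those held AGATAA or TGATAA. A match is a description of the letters and no evidence of binding.

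The test took in the 11201 genes whose level averaged 1 FPKM or more in the 4 Bcor-/- libraries, and of these 2718 (24.3%) were higher in LSK and 1845 (16.5%) higher in MEP. The minimum used the Bcor-/- libraries alone, so a gene present in a single stage passed through that stage. In WT mice, the same genes gave 3088 LSK-higher (27.6%) and 2522 MEP-higher (22.5%) calls. Of the genes called in Bcor-/- mice, 4558 of 4563 had the same sign in both replicates. Among LSK-higher genes 2335 were shared, which is 75.6% of the WT list and 85.9% of the Bcor-/- list. Among MEP-higher genes 1579 were shared, 62.6% of the WT list and 85.6% of the Bcor-/- list. A further 752 LSK-higher and 937 MEP-higher genes of WT were not called in Bcor-/- mice, but the change of the difference passed its own test for 152 and 195 of them. Opposite directions were called for 7 genes. Gata2 was LSK-higher in WT and MEP-higher in Bcor-/- mice, while Acp5, Cdkn3, Ifngr1, Mblac1, Med21 and Slc22a4 were MEP-higher in WT and LSK-higher in Bcor-/- mice. Without centring, 72.1% of the Bcor-/- calls were LSK-higher against 59.6% with it, and the median of all genes then lay at 0.16 on the log2 scale. After joint quantile normalisation the share was 48.9% and the median lay at -0.11.

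The size of the differences was described on genes chosen in other mice. The 3263 genes called LSK-higher in Dnmt3a-/- mice had a median stage difference of 1.01 and 0.90 in Bcor-/- replicates 1 and 2, against 1.098 to 1.43 in the 3 WT mice. For the 2827 genes called MEP-higher in Dnmt3a-/- mice, the medians were -0.71 and -0.59 in Bcor-/- mice and -0.81 to -0.99 in WT mice. In both lists each Bcor-/- value lay closer to 0 than every WT value. Differences beyond 4 on the log2 scale went the same way for MEP genes, with 1 gene called beyond -4 in Bcor-/- mice (Mir703, described last) and 49 in WT mice. In the LSK direction the order was turned, with 44 genes called beyond 4 in Bcor-/- mice and 18 in WT mice. The minimum level was set on the Bcor-/- libraries alone, so genes high only in WT libraries could be missing from these counts. That favours Bcor-/- mice in them, and the counts do not decide between the genotypes. Whether the spread of differences itself changed was not tested.

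**Figure D1:**
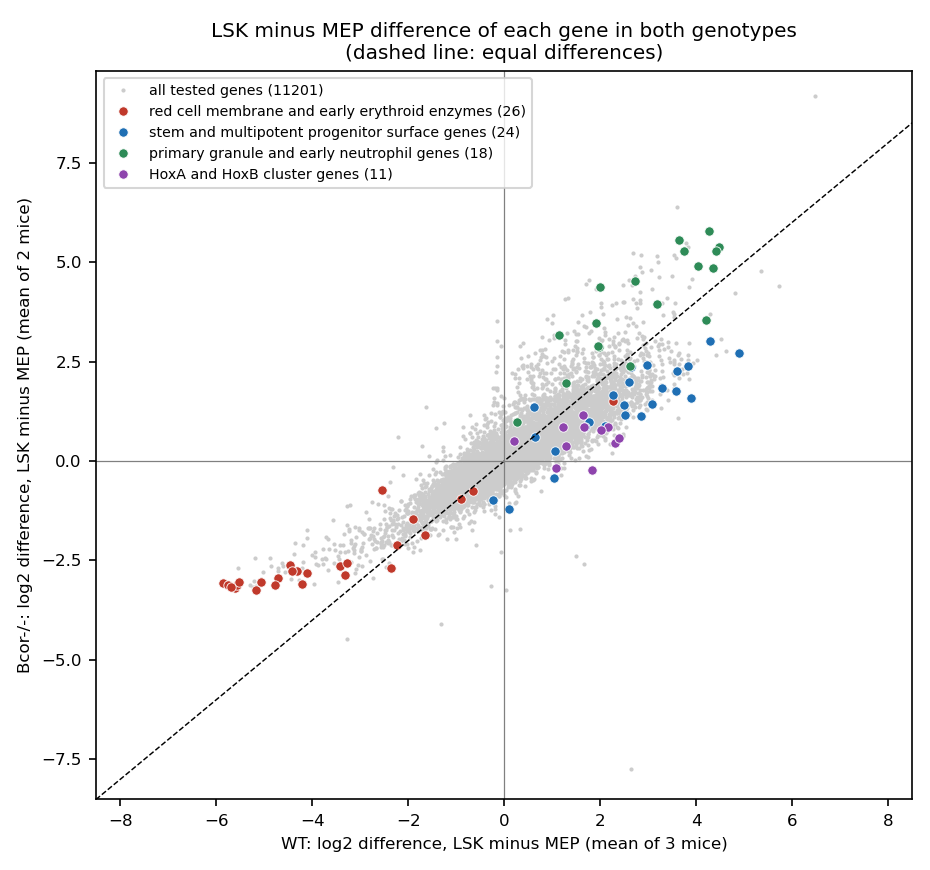
Stage difference of each tested gene in Bcor-/- mice (vertical axis, log2 LSK minus MEP, mean of 2) against that in WT mice (horizontal axis, mean of 3), with 4 gene lists coloured and equal differences on the dashed line. Red cell genes lay below 0 in both genotypes, apart from Slc2a1, with a median of -2.79 in Bcor-/- mice and -4.26 in WT mice, most stem cell surface and Hox genes lay below the dashed line, and most primary granule genes above it.

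Of 26 red cell membrane and early erythroid genes, 24 were MEP-higher in Bcor-/- mice (background 16.5%) and 25 in WT mice (background 22.5%). The median difference was -2.79 in Bcor-/- mice and -4.26 in WT mice, where all tested genes had medians of 0.00 in both. Leaving out either Bcor-/- replicate left 24 genes called. The exceptions were the glucose transporter gene Slc2a1, which was LSK-higher in both genotypes, and the anion exchanger gene Slc4a1, at 2.67 and 3.01 FPKM in LSK and 7.78 and 2.72 FPKM in MEP of Bcor-/- mice.

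Car1, a carbonic anhydrase of early erythroid cells, was at 379 and 679.5 FPKM in Bcor-/- LSK and at 3829.8 and 4062 FPKM in Bcor-/- MEP. In WT mice it was at 49.9, 77.6 and 76.0 FPKM in LSK and at 3549, 3713 and 2686 FPKM in MEP. The LSK and MEP libraries did not overlap in either genotype, and both Bcor-/- LSK values were above every WT LSK value. Its stage difference was -3.11 ± 0.26 in Bcor-/- mice (adjusted p = 4.18e-05) and -5.75 ± 0.21 in WT mice. Rhag, the Rh-associated glycoprotein whose promoter is shown above, was at 8.84 and 22.4 FPKM in Bcor-/- LSK and 127 and 121 FPKM in MEP, with 1.34, 2.14 and 2.71 FPKM in WT LSK and a median of 125 FPKM in WT MEP. Its difference was -3.20 ± 0.29 in Bcor-/- mice and -5.61 ± 0.23 in WT mice. Ermap, an erythroid membrane-associated protein, went from 17.1 and 40.6 FPKM in LSK to 205 and 222 FPKM in MEP of Bcor-/- mice (-3.12 ± 0.25, adjusted p = 4.11e-05). In MEP, both Bcor-/- values lay within the WT range for Rhag and above every WT value for Car1. For Ermap both lay below every WT MEP value (238, 281 and 225 FPKM). The LSK values of all 3 genes lay above WT LSK. Over the 26 genes, summed levels in MEP were 8732 and 9056 FPKM in Bcor-/- mice and 6702 to 9641 FPKM in WT mice, and in LSK 1102 and 1719 FPKM against 599 to 724 FPKM.

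Expressed as the LSK level in percent of the MEP level of the same mouse, the median over the 26 genes was 10.3% and 18.7% in Bcor-/- replicates 1 and 2. It was 2.89%, 2.64% and 6.14% in the WT mice. In Bcor-/- replicate 2 the values lay close together, with quartiles of 17.5% and 21.0%, against 8.08% and 25.5% in replicate 1. The change between genotypes passed the test toward LSK for 15 of the 26 genes and toward MEP for 0, with backgrounds of 5.34% and 3.63% of all tested genes. That count was 15 without Bcor-/- replicate 1, 0 without Bcor-/- replicate 2, and 7, 12 and 17 without WT replicates 1, 2 and 3. Among the 15 were Rhd (2.81 ± 0.49, adjusted p = 0.0144), a Rh blood group protein, Car1 (2.64 ± 0.33, adjusted p = 0.00837), the erythropoietin receptor gene Epor (1.67 ± 0.35, adjusted p = 0.0237) and the water channel gene Aqp1 (2.03 ± 0.30, adjusted p = 0.0106). The changes of Rhd, Car1, Epor and Aqp1 were not called without Bcor-/- replicate 2 (2.49, 2.26, 1.26 and 1.64, adjusted p = 0.0815 to 0.193). The changes of Rhd and Epor were not called without WT replicate 1 (2.53 and 1.55, adjusted p = 0.0526 to 0.0802). The change of Epor was not called without WT replicate 2 (1.502, adjusted p = 0.0512).

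For other members the change missed the test. Car2, another carbonic anhydrase, was at 318 and 426 FPKM in Bcor-/- LSK and 342, 305 and 379 FPKM in WT LSK, with differences of -2.69 ± 0.20 and -2.36 ± 0.16 and a change of -0.34 ± 0.25. For the membrane skeleton gene Epb4.1 the differences were -0.96 and -0.90 (change -0.06 ± 0.16), and for the urea transporter gene Slc14a1 -1.86 and -1.65 (change -0.21 ± 0.14).

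**Figure D2:**
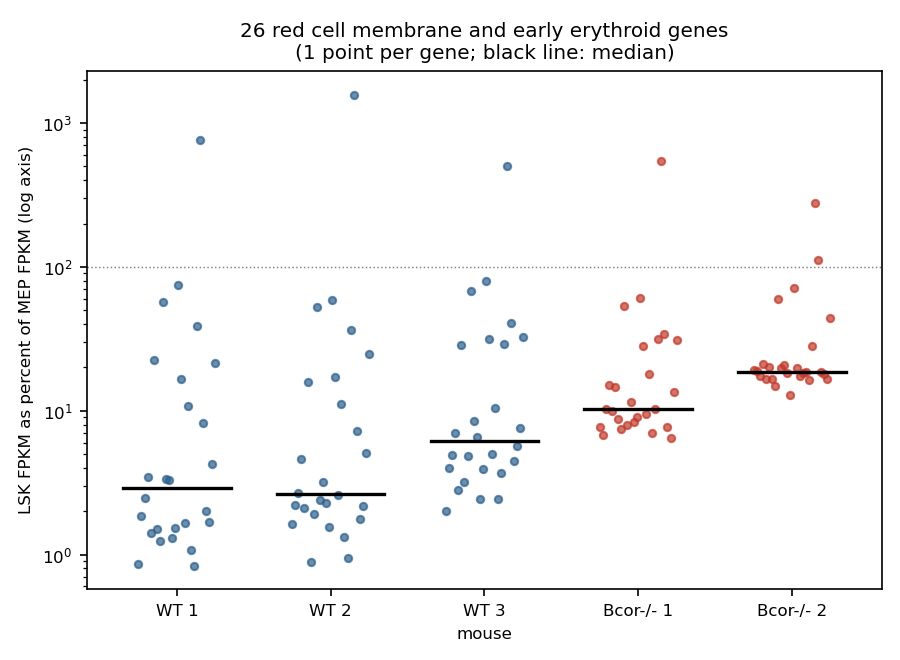
LSK level in percent of the MEP level of the same mouse (vertical log axis, 100% dotted) for 26 red cell membrane and early erythroid genes, 1 point per gene, with the median of each mouse as a black line. The medians of the Bcor-/- replicates, 10.3% and 18.7%, lay above the 2.64% to 6.14% of the WT mice, and the points of Bcor-/- 2 were gathered between 17.5% and 21.0% (quartiles).

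The list of erythroid transcription factors also held cofactors and the ubiquitin ligase gene Trim58. Of its 16 genes, 11 were MEP-higher in Bcor-/- mice (background 16.5%) and 9 in WT mice (background 22.5%). Gata1, which drives erythroid and megakaryocytic genes, was at 17.99 and 34.3 FPKM in Bcor-/- LSK and 185 and 195 FPKM in Bcor-/- MEP. WT libraries held 7.83, 12.1 and 12.9 FPKM in LSK and 178, 225 and 170.2 FPKM in MEP, so that both Bcor-/- LSK values were above the WT values and the MEP ranges overlapped. Its difference was -3.04 ± 0.20 in Bcor-/- mice (adjusted p = 2.61e-05) and -4.17 ± 0.16 in WT mice, and the change passed the test (1.14 ± 0.26, adjusted p = 0.0278). Klf1, the erythroid Krüppel-like factor, went from 16.1 and 35.4 FPKM in LSK to 189 and 203 FPKM in MEP, with 1.96, 4.96 and 6.05 FPKM in WT LSK. Its difference was -3.13 ± 0.30 against -5.18 ± 0.24 in WT mice. Gfi1b, a repressor needed in erythroid and megakaryocytic cells, differed by -2.81 ± 0.20 in Bcor-/- mice and -3.12 ± 0.16 in WT mice, and Zfpm1, the Gata1 partner FOG1, by -1.86 ± 0.16 and -1.55 ± 0.13. Neither change passed the test. Bcl11a, a repressor of fetal globin genes, was MEP-higher in Bcor-/- mice, at 34.4 and 31.8 FPKM in LSK and 62.6 and 65.3 FPKM in MEP (-1.09 ± 0.11, adjusted p = 9.28e-05), and its WT difference of -0.42 missed the fold of 1.5. Myb, a factor of progenitor proliferation, was LSK-higher, at 264 and 313 against 158 and 181 FPKM (0.61 ± 0.09, adjusted p = 0.00041). Without Bcor-/- replicate 2, the Myb difference was 0.57 and missed the fold. The change between genotypes was called toward LSK for 2 of the 16 genes, Gata1 and Klf1 (2.04 ± 0.38, adjusted p = 0.0167), and toward MEP for 3 (backgrounds 5.34% and 3.63%), with a median change of -0.19. The 3 were Bcl11a (-0.66 ± 0.15, adjusted p = 0.0261), Cbfa2t3, the corepressor ETO2 (-0.76 ± 0.17, adjusted p = 0.0258), and Trim58, a ubiquitin ligase of erythroid cells (-0.71 ± 0.15, adjusted p = 0.023). The number of changes called was 2 without Bcor-/- replicate 1, 0 without Bcor-/- replicate 2 or WT replicate 1, 3 without WT replicate 2 and 6 without WT replicate 3. The changes of Bcl11a, Cbfa2t3 and Trim58 were not called without Bcor-/- replicate 1 (-0.74, -0.84 and -0.64, adjusted p = 0.0662 to 0.0884). The changes of Gata1, Klf1, Bcl11a, Cbfa2t3 and Trim58 were not called without Bcor-/- replicate 2 (0.72, 1.55, -0.59, -0.69 and -0.78, adjusted p = 0.116 to 0.199). The changes of Gata1, Klf1, Bcl11a, Cbfa2t3 and Trim58 were not called without WT replicate 1 (0.97, 1.75, -0.58, -0.80 and -0.72, adjusted p = 0.0546 to 0.0872). The changes of Gata1 and Cbfa2t3 were not called without WT replicate 2 (1.104 and -0.72, adjusted p = 0.0575 to 0.0588).

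Gata2, the factor of stem and early progenitor cells that Gata1 replaces, was the 1 gene called LSK-higher in WT mice and MEP-higher in Bcor-/- mice. It was at 33.5 and 26.8 FPKM in Bcor-/- LSK and 41.6 and 51.4 FPKM in Bcor-/- MEP, so that both MEP libraries were above both LSK libraries. WT LSK held 54.7, 54.1 and 74.5 FPKM and WT MEP 34.2, 18.6 and 49.2 FPKM, with each mouse higher in LSK. The stage difference was -0.76 ± 0.26 in Bcor-/- mice (adjusted p = 0.0316) and 0.76 ± 0.21 in WT mice (adjusted p = 0.00981), and the change was -1.53 ± 0.34, adjusted p = 0.0267. The Bcor-/- call was lost without replicate 1 (-1.06, adjusted p = 0.0553) and without replicate 2 (-0.47, adjusted p = 0.332). The change of Gata2 was not called without Bcor-/- replicate 1 (-1.82, adjusted p = 0.0551), without Bcor-/- replicate 2 (-1.23, adjusted p = 0.206) and without WT replicate 1 (-1.66, adjusted p = 0.0648). Over all alternatives the Bcor-/- call of Gata2 was lost in 8 of 15 and the call of its change in 5 of 18, with the direction kept in each.

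**Figure D3:**
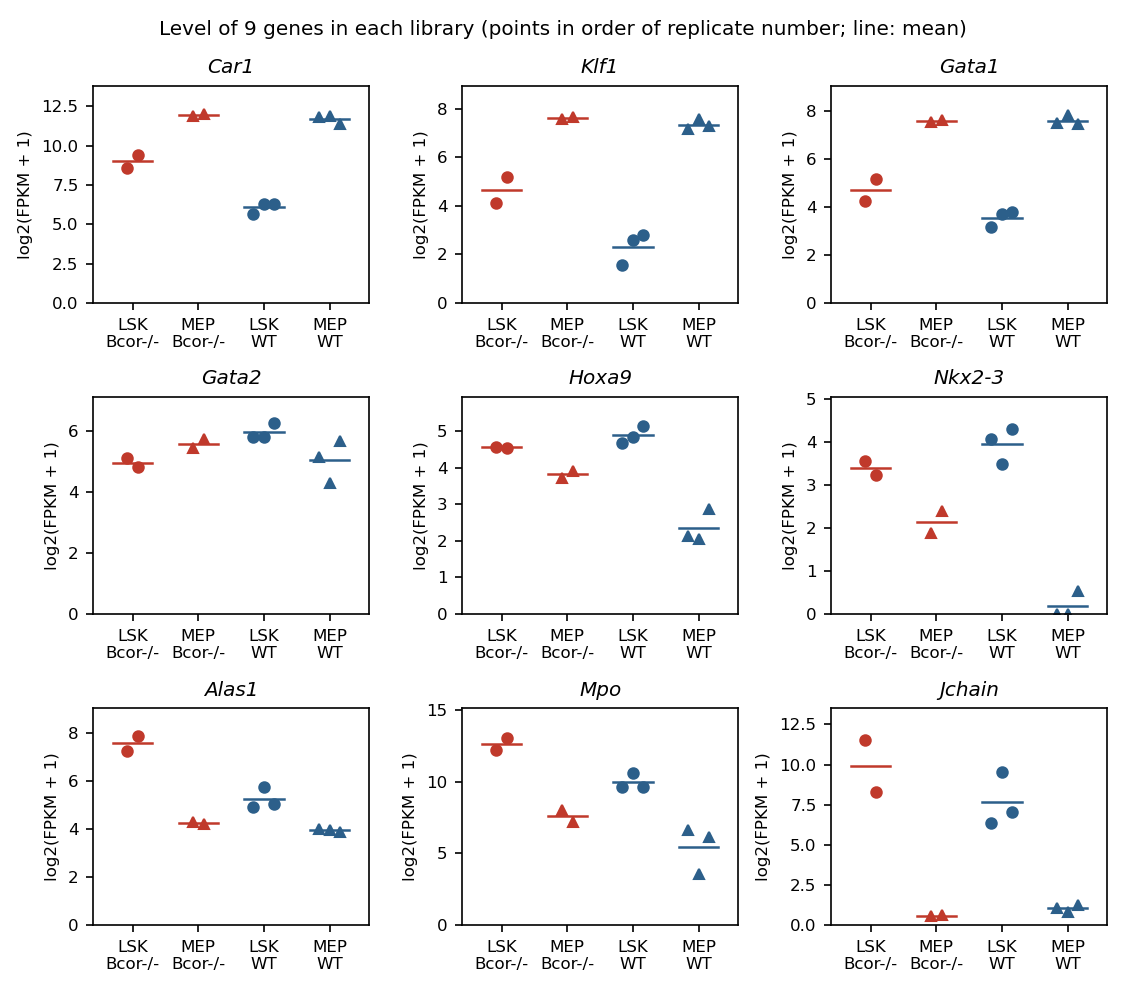
Level of 9 genes on the log2(FPKM + 1) axis in LSK (circles) and MEP (triangles) of Bcor-/- (red) and WT (blue) mice, 1 point per library in the order of the replicate numbers, with the mean as a line. Car1, Klf1 and Gata1 were higher in Bcor-/- than in WT LSK, Hoxa9 and Nkx2-3 were higher in Bcor-/- than in WT MEP, and Gata2 alone of the 9 was higher in MEP of Bcor-/- mice and higher in LSK of WT mice.

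Genes of heme synthesis and mitochondrial iron were MEP-higher for 14 of 18 members in Bcor-/- mice (background 16.5%) and 15 in WT mice (background 22.5%), with medians of -1.52 and -2.35. The LSK level reached a median of 35.7% and 44.0% of the MEP level in the Bcor-/- replicates and 15.9% to 26.9% in WT mice. Cpox, coproporphyrinogen oxidase, was at 21.5 and 35.8 FPKM in Bcor-/- LSK and 160.3 and 153 FPKM in MEP, against 9.50, 10.02 and 12.9 FPKM in WT LSK. Its difference was -2.61 ± 0.22 in Bcor-/- mice (adjusted p = 4.18e-05) and -3.88 ± 0.18 in WT mice. Alad, the second enzyme of the pathway, went from 12.6 and 17.9 FPKM in LSK to 59.1 and 63.1 FPKM in MEP (-2.11 ± 0.19, adjusted p = 5.46e-05). The change between genotypes was called toward LSK for 9 of the 18 genes (background 5.34%), and for 0 of them without Bcor-/- replicate 2, 2 without WT replicate 1 and 11 without WT replicate 3.

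The 2 genes of the first step of heme synthesis parted. Alas2, the erythroid 5-aminolevulinate synthase, was at 1.72 and 1.04 FPKM in LSK and 1.91 and 1.49 FPKM in MEP of Bcor-/- mice, and these ranges overlapped. WT MEP held 4.45, 15.2 and 6.90 FPKM of Alas2, above both Bcor-/- MEP libraries. Reads of Alas2 may be shared with the overlapping gene Apex2 on the other strand, since strandedness was not stated. Alas1, the housekeeping form, was LSK-higher in Bcor-/- mice, at 151 and 231 FPKM in LSK and 18.2 and 17.3 FPKM in MEP, with 29.0 to 51.9 FPKM in WT LSK. The Alas1 difference was 3.17 ± 0.25 in Bcor-/- mice and 1.13 ± 0.21 in WT mice, and the change was 2.04 ± 0.33, adjusted p = 0.0116. The change of Alas1 was not called without Bcor-/- replicate 2 (1.69, adjusted p = 0.112).

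Of 8 genes listed, 7 globins and the alpha-globin chaperone, 3 globin genes were tested, and 2 of them were MEP-higher in Bcor-/- mice and 3 in WT mice (backgrounds 16.5% and 22.5%). Hba-a1 was at 33.1 and 43.4 FPKM in Bcor-/- LSK and 147 and 90.7 FPKM in MEP, and this difference was called. Hbb-b1 was at 62.5 and 45.5 FPKM in LSK and 66.3 and 43.3 FPKM in MEP, with overlapping ranges. WT MEP held 97.4, 264 and 108 FPKM of Hbb-b1, and its WT difference was -2.31 ± 0.38. The globin genes are near-identical pairs whose reads may be split between copies. The call of Hba-a1 was lost without Bcor-/- replicate 1 (-1.19, adjusted p = 0.218) and in a fit of all 4 genotypes (adjusted p = 0.106), and that of Hbb-b2 without either replicate. Of 13 genes of iron uptake and storage 11 were tested, and 7 were MEP-higher in each genotype (backgrounds 16.5% and 22.5%). The transferrin receptor gene Tfrc was at 48.7 and 63.4 FPKM in LSK and 153 and 152 FPKM in MEP of Bcor-/- mice, below the 204 to 210.5 FPKM of WT MEP. The differences were -1.59 ± 0.10 and -2.59 ± 0.08, and the change was 0.99 ± 0.13, adjusted p = 0.00883. The change of Tfrc was not called without Bcor-/- replicate 2 (0.79, adjusted p = 0.0729).

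Stem cell transcription factors were LSK-higher for 14 of 24 genes in Bcor-/- mice (background 24.3%) and for 20 in WT mice (background 27.6%). Their median difference was 0.71 in Bcor-/- mice and 1.74 in WT mice. Without Bcor-/- replicate 1 the LSK-higher share of this list was near the background, and without replicate 2 it was above it. Hlf, a bZIP factor of stem cells, was higher in LSK, at 39.1 and 28.0 FPKM against 2.83 and 2.49 FPKM in MEP (3.07 ± 0.31, adjusted p = 8.47e-05). In WT mice Hlf was at 67.6, 57.1 and 80.5 FPKM in LSK and 1.69, 0.495 and 3.89 FPKM in MEP. Mecom, which encodes Evi1, was at 5.17 and 4.19 FPKM in Bcor-/- LSK and 0.54 and 0.481 FPKM in MEP, and at 9.97 to 14.8 FPKM in WT LSK, with a difference of 1.75 ± 0.16 against 3.04 ± 0.13. Erg, an Ets factor, was at 61.7 and 49.1 against 12.6 and 10.1 FPKM (2.04 ± 0.28, adjusted p = 0.000319).

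Of other members, Nkx2-3 and Prdm16 stood higher in Bcor-/- than in WT MEP. Nkx2-3, a homeobox factor, was at 10.6 and 8.30 FPKM in Bcor-/- LSK and 2.67 and 4.29 FPKM in Bcor-/- MEP, where WT MEP held 0, 0 and 0.453 FPKM. Both Bcor-/- MEP values were above every WT MEP value, while the LSK ranges overlapped (15.7, 10.1 and 18.5 FPKM in WT). The Nkx2-3 difference was 1.09 ± 0.22 in Bcor-/- mice and 3.61 ± 0.18 in WT mice, a change of -2.53 ± 0.29, adjusted p = 0.00713. The change of Nkx2-3 was not called without Bcor-/- replicate 2 (-2.11, adjusted p = 0.0698). Without Bcor-/- replicate 1 its stage call was lost (0.67, adjusted p = 0.0763). Prdm16, a zinc finger factor of stem cells, was at 3.17 and 2.65 FPKM in LSK and 2.02 and 1.91 FPKM in MEP of Bcor-/- mice, and at 0.399, 0.242 and 0.438 FPKM in WT MEP. Its difference of 0.24 ± 0.16 did not pass the test, against 1.65 ± 0.13 in WT mice. Runx1, a master regulator of blood stem cell formation, was at 16.9 and 18.1 FPKM in LSK and 14.0 and 15.4 FPKM in MEP of Bcor-/- mice. Its difference was 0.08 ± 0.14, against 0.95 ± 0.12 in WT mice. The change of Runx1 was not called without Bcor-/- replicate 1 (-0.88), without Bcor-/- replicate 2 (-0.855) and without WT replicate 1 (-0.88, adjusted p = 0.0743). Of the list, 9 genes had a changed difference, each toward MEP (background 3.63%). That count was 0 without Bcor-/- replicate 2, and 6, 5, 8 and 12 without Bcor-/- replicate 1 and WT replicates 1, 2 and 3. Nfia and Mllt3 were MEP-higher in both genotypes, with Nfia at 1.96 and 2.81 FPKM in LSK and 7.99 and 9.25 FPKM in MEP of Bcor-/- mice (-1.67 ± 0.12, adjusted p = 3.42e-05).

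Surface genes of stem and multipotent progenitor cells were LSK-higher for 19 of 24 tested genes (27 listed) in Bcor-/- mice (background 24.3%) and for 22 in WT mice (background 27.6%), with medians of 1.42 and 2.56. The count in Bcor-/- mice was 13 without replicate 1 and 15 without replicate 2. Procr, the endothelial protein C receptor, was at 22.6 and 14.5 FPKM in Bcor-/- LSK and 0.864 and 1.44 FPKM in MEP (3.01 ± 0.27, adjusted p = 5.01e-05). Flt3, the receptor that marks multipotent progenitors, was at 135 and 85.8 against 23.7 and 12.8 FPKM (2.40 ± 0.44, adjusted p = 0.00156), with 247, 213 and 197 FPKM in WT LSK. Both Flt3 values in Bcor-/- LSK were below every WT LSK value.

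The change was called toward MEP for 9 of these genes and toward LSK for 1 (backgrounds 3.63% and 5.34%). Emcn, the sialomucin endomucin, had a change of -1.82 ± 0.31, adjusted p = 0.0134 and was at 4.86 and 5.06 FPKM in Bcor-/- LSK and 16.99, 17.5 and 15.97 FPKM in WT LSK. The change of Emcn was not called without Bcor-/- replicate 1 (-1.51, adjusted p = 0.0623), without Bcor-/- replicate 2 (-2.12, adjusted p = 0.0838) and without WT replicate 1 (-1.81, adjusted p = 0.0525). Ifitm1, an interferon-induced membrane protein gene, was at 263 and 139 FPKM in Bcor-/- LSK and 59.0 and 53.6 FPKM in MEP, with 24.97, 8.96 and 35.7 FPKM in WT MEP, and its change was -2.30 ± 0.58, adjusted p = 0.0385. Its Bcor-/- stage call was lost without replicate 1 (1.22, adjusted p = 0.18). The change of Ifitm1 was not called without Bcor-/- replicate 1 (-2.67, adjusted p = 0.0839), without Bcor-/- replicate 2 (-1.92, adjusted p = 0.244), without WT replicate 1 (-2.35, adjusted p = 0.0971) and without WT replicate 2 (-1.83, adjusted p = 0.0728). Eng, endoglin, was MEP-higher in Bcor-/- mice, at 29.6 and 26.9 FPKM in LSK and 51.7 and 50.6 FPKM in MEP (-0.99 ± 0.13, adjusted p = 0.000275), and at 50.9, 46.9 and 56.997 FPKM in WT LSK. Cxcr4, the chemokine receptor for niche retention, was the gene that changed toward LSK, at 88.8 and 96.5 FPKM in Bcor-/- LSK against 38.1, 59.9 and 61.0 FPKM in WT LSK (change 0.75 ± 0.19, adjusted p = 0.0373). The change of Cxcr4 was not called without Bcor-/- replicate 1 (0.91, adjusted p = 0.0677), without Bcor-/- replicate 2 (0.59, adjusted p = 0.244), without WT replicate 1 (0.57, adjusted p = 0.0902) and without WT replicate 2 (0.76, adjusted p = 0.0677). With single mice left out, the number of changes called was 4 without Bcor-/- replicate 1, 0 without Bcor-/- replicate 2 or WT replicate 1, 5 without WT replicate 2 and 10 without WT replicate 3.

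Hox genes of the A and B clusters, which set the program of immature cells, were LSK-higher for 5 of 11 tested genes (21 listed) in Bcor-/- mice (background 24.3%) and for 10 in WT mice (background 27.6%). Their medians were 0.59 and 1.66. Without Bcor-/- replicate 1 the count was 2, a share below the background, and without replicate 2 it was 4. Summed over the list, the MEP libraries held 34.99 and 41.5 FPKM in Bcor-/- mice and 8.61 to 15.4 FPKM in WT mice, and the LSK libraries 66.0 and 67.0 FPKM against 71.2 to 87.1 FPKM. Hoxa9, a partner of Meis1, was at 22.9 and 22.4 FPKM in Bcor-/- LSK and 12.2 and 14.2 FPKM in Bcor-/- MEP, with 24.6, 27.7 and 34.4 FPKM in WT LSK and 3.38, 3.17 and 6.38 FPKM in WT MEP. The Hoxa9 difference was 0.59 ± 0.14 in Bcor-/- mice (adjusted p = 0.0051) and 2.38 ± 0.11 in WT mice, and its call was lost without Bcor-/- replicate 1 (0.48, adjusted p = 0.0902). Hoxa10 was at 7.23 and 6.49 FPKM in LSK and 6.51 and 7.97 FPKM in MEP of Bcor-/- mice, with overlapping ranges, and at 6.52, 6.70 and 10.4 and 1.66, 0.719 and 1.33 FPKM in WT LSK and MEP. The Hoxa10 difference went from 1.83 ± 0.20 in WT mice to -0.22 ± 0.25, which did not pass the test, a change of -2.05 ± 0.32, adjusted p = 0.0116. Hoxa5, whose model overlaps Hoxa3, changed by -1.85 ± 0.22, adjusted p = 0.00736. The changes of Hoxa10 and Hoxa5 were not called without Bcor-/- replicate 2 (-1.86 and -1.87, adjusted p = 0.0698 to 0.107). Hoxb3 and Hoxb4 were LSK-higher in both genotypes, with Hoxb4 at 3.75 and 4.36 FPKM in LSK and 1.32 and 1.71 FPKM in MEP (0.85 ± 0.15, adjusted p = 0.00134). After joint quantile normalisation neither was called in Bcor-/- mice, at 0.636 (adjusted p = 0.0632) for Hoxb3 and 0.292 (adjusted p = 0.188) for Hoxb4. In the Hox list 5 changes were called, each toward MEP (background 3.63%). The number was 3 without Bcor-/- replicate 1, 0 without Bcor-/- replicate 2, 3 without WT replicate 1 and 4 and 5 without WT replicates 2 and 3.

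Among the 28 lists, primary granule genes had the largest median difference in Bcor-/- mice, 4.17, against 2.96 in WT mice. By mouse these medians overlapped, at 3.74 and 4.59 in Bcor-/- mice and 1.95, 3.87 and 2.715 in WT mice. All 18 genes of primary granules and early neutrophil differentiation were LSK-higher in Bcor-/- mice, also without replicate 1 and without replicate 2, and 17 in WT mice (backgrounds 24.3% and 27.6%). Mpo, myeloperoxidase, was at 4710.0 and 8426 FPKM in Bcor-/- LSK and 263 and 145 FPKM in MEP, with 788, 1532 and 785 FPKM in WT LSK and 96.1, 10.8 and 69.2 FPKM in WT MEP. Elane, neutrophil elastase, was at 3351 and 5593 FPKM in Bcor-/- LSK and 112.5 and 74.6 FPKM in MEP (5.39 ± 0.96, adjusted p = 0.00125), and at 217, 812 and 343 FPKM in WT LSK. The Bcor-/- LSK values of both genes were above every WT LSK value, and the MEP values of both genes were above every WT MEP value too. Cebpe, a factor of granulocyte maturation, was at 47.7 and 79.7 FPKM in LSK and 1.89 and 1.56 FPKM in MEP, with 3.94, 11.6 and 5.23 FPKM in WT LSK, and its change was 2.39 ± 0.62, adjusted p = 0.0415. The change of Cebpe was not called without Bcor-/- replicate 1 (2.85, adjusted p = 0.0812), without Bcor-/- replicate 2 (1.92, adjusted p = 0.26), without WT replicate 1 (1.79, adjusted p = 0.0901) and without WT replicate 3 (2.46, adjusted p = 0.0596). The other called change of this list was that of Alas1, described with heme synthesis. Summed over the 18 genes, the level was 19510 and 29890 FPKM in Bcor-/- LSK and 4409 to 7163 FPKM in WT LSK, against 2036 and 1550 FPKM in Bcor-/- MEP and 870.2 to 1352 FPKM in WT MEP.

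Genes of this list such as Mpo and Elane, though not Alas1, are typical of granulocyte-monocyte progenitors and their progeny, which neither gate should hold. WT LSK held these transcripts as well. Bulk values cannot tell such cells from LSK cells that express these genes. The lists of other mature cells are therefore given beside this list. All 13 tested late neutrophil granule genes (15 listed) were LSK-higher in both genotypes (backgrounds 24.3% and 27.6%), and their sum was 6348 and 6013 FPKM in Bcor-/- LSK and 2200 to 11137 FPKM in WT LSK, with overlapping ranges. This count was 10 without Bcor-/- replicate 1 and 9 without replicate 2. Of 15 tested macrophage and monocyte genes (18 listed) 13 were LSK-higher in Bcor-/- mice (background 24.3%), and the sum was 455 and 422 FPKM in Bcor-/- LSK and 125 to 489 FPKM in WT LSK. C1qb, a complement gene of macrophages, was at 68.8 and 51.6 FPKM in Bcor-/- LSK and 0.324 and 0.288 FPKM in MEP, and C1qc was listed at 0 in 1 of the 2 MEP libraries. Vcam1, an adhesion molecule of macrophages and stroma, was at 88.8 and 80.5 against 0.936 and 0.515 FPKM (5.49 ± 0.59, adjusted p = 0.000106). Marco, a scavenger receptor of macrophages, was listed at 0 in both Bcor-/- MEP libraries. Of 18 T and NK cell genes 9 were tested, with 4 LSK-higher and 3 MEP-higher in Bcor-/- mice (backgrounds 24.3% and 16.5%) and 5 and 3 in WT mice. These counts were 3 and 1 without Bcor-/- replicate 1. The T cell receptor genes Cd3d, Cd3e and Cd3g were at most at 0.846 FPKM in the 4 Bcor-/- libraries, while Nkg7, a granule protein gene of cytotoxic cells, was at 448 and 615 FPKM in Bcor-/- LSK. The part of such cells in the LSK-higher genes was not tested.

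B lineage genes split within their list, 5 LSK-higher and 4 MEP-higher of 10 tested (14 listed) in Bcor-/- mice (backgrounds 24.3% and 16.5%), against 3 and 5 in WT mice (27.6% and 22.5%). The summed level was 3572 and 864 FPKM in Bcor-/- LSK and 424 to 1192 FPKM in WT LSK. Without Bcor-/- replicate 1 the counts were 3 and 2. Jchain, the joining chain of immunoglobulins, had the largest LSK-higher difference of the genes named by size, at 2949 and 309.6 FPKM in Bcor-/- LSK and 0.447 and 0.53 FPKM in MEP (9.18 ± 1.03, adjusted p = 0.000131). Its level differed widely between the LSK libraries and was 82.1, 746 and 132 FPKM in WT LSK. Jchain alone made up most of the summed level in LSK of Bcor-/- replicate 1 and of WT replicate 2. Vpreb1 and Igll1, parts of the surrogate light chain of early B cells, were MEP-higher, with Igll1 at 3.39 and 1.87 FPKM in LSK and 30.3 and 4.95 FPKM in MEP (-2.10 ± 0.36, adjusted p = 0.00104) and at 28.1, 62.8 and 9.92 FPKM in WT MEP. The Igll1 difference was -1.20 without Bcor-/- replicate 1 and -2.999 without replicate 2, and the Vpreb1 call was lost without replicate 1 (-0.77, adjusted p = 0.138). Pax5, the factor that defines B cells, was at 0.49 and 0 FPKM in LSK and 1.67 and 0.371 FPKM in MEP and was not tested. The part of B lineage cells in these values was not tested.

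Mast cell, basophil and eosinophil genes were LSK-higher for 6 of 10 tested (14 listed) in Bcor-/- mice (background 24.3%) and 9 in WT mice (background 27.6%). Their sum was 283 and 437 FPKM in Bcor-/- LSK and 332 to 499 FPKM in WT LSK, and Tpsb2, a mast cell tryptase, was listed at 0 in the 4 Bcor-/- libraries. Hdc, histidine decarboxylase, was at 68.1 and 105 FPKM in Bcor-/- LSK and 4.33 and 3.33 FPKM in MEP (3.9999 ± 0.48, adjusted p = 0.00017), against 6.43, 20.1 and 11.5 FPKM in WT LSK. Prss34, a basophil protease, was at 17.98 and 43.3 against 0.414 and 0.368 FPKM (4.23 ± 0.45, adjusted p = 0.000103). The interleukin-33 receptor gene Il1rl1 was MEP-higher in both genotypes, at 2.28 and 3.93 FPKM in LSK and 9.28 and 11.6 FPKM in MEP of Bcor-/- mice, and its change was 1.46 ± 0.27, adjusted p = 0.0161. The change of Il1rl1 was not called without Bcor-/- replicate 2 (1.30, adjusted p = 0.142). The other change called in this list was toward MEP, that of Fcer1a, a chain of the IgE receptor (-1.53 ± 0.41, adjusted p = 0.046). The change of Fcer1a was not called without Bcor-/- replicate 1 (-1.90, adjusted p = 0.072), without Bcor-/- replicate 2 (-1.16, adjusted p = 0.275), without WT replicate 1 (-1.58, adjusted p = 0.106) and without WT replicate 2 (-1.24, adjusted p = 0.0941). Lymphoid priming genes were LSK-higher for 8 of 15 tested (20 listed) in Bcor-/- mice (background 24.3%) and 9 in WT mice (background 27.6%). In Bcor-/- mice the count was 6 without replicate 1 and 4, near the background, without replicate 2. Notch1, a receptor of T lineage choice, was at 13.1 and 14.4 FPKM in Bcor-/- LSK and 3.72 and 1.84 FPKM in MEP (1.85 ± 0.29, adjusted p = 0.000634), and at 25.8, 26.3 and 22.5 FPKM in WT LSK. Ly6d, a surface gene of early B lineage progenitors, was at 57.6 and 9.78 FPKM in Bcor-/- LSK and 1.39 and 0.494 FPKM in MEP (3.58 ± 0.48, adjusted p = 0.000305), against 4.78, 31.3 and 11.2 FPKM in WT LSK and 5.18, 7.45 and 3.99 FPKM in WT MEP. Its WT difference did not pass the test and its change was 2.69 ± 0.62, adjusted p = 0.0301. The change of Ly6d was not called without Bcor-/- replicate 1 (1.81, adjusted p = 0.146), without Bcor-/- replicate 2 (3.56, adjusted p = 0.0952) and without WT replicate 1 (2.11, adjusted p = 0.0763). The other changes called in this list were those of Blnk, an adaptor of B cell signalling, toward LSK (0.996 ± 0.21, adjusted p = 0.0233) and of Tcf4, a factor of lymphoid and dendritic cells, toward MEP (-0.99 ± 0.17, adjusted p = 0.0145). None of the changes of this list was called without Bcor-/- replicate 2 or WT replicate 1.

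Of 22 tested megakaryocyte and platelet genes (28 listed), 6 were MEP-higher and 2 LSK-higher in Bcor-/- mice (backgrounds 16.5% and 24.3%), against 5 and 6 in WT mice (22.5% and 27.6%), and 0 changes were called (4 without WT replicate 3 and 2 without WT replicate 2). The MEP-higher count was 2 without Bcor-/- replicate 2, and the LSK-higher count was 0 without replicate 1. Pf4, platelet factor 4, was at 86.8 and 66.6 FPKM in Bcor-/- LSK and 72.5 and 122 FPKM in MEP, with overlapping ranges, and at 34.9, 50.8 and 43.3 FPKM in WT LSK and 199, 56.5 and 243 FPKM in WT MEP. Itga2b, which encodes CD41, was at 45.8 and 32.6 FPKM in LSK and 42.2 and 58.3 FPKM in MEP of Bcor-/- mice. Gp5, a platelet glycoprotein, was MEP-higher in both genotypes, at 8.35 and 6.73 FPKM in LSK and 23.6 and 22.8 FPKM in MEP of Bcor-/- mice (-1.66 ± 0.20, adjusted p = 0.000185). WT MEP replicate 2 had the lowest level of Pf4 and Itga2b among the WT MEP libraries. Vwf, von Willebrand factor, was at 6.35 and 4.82 against 8.60 and 11.2 FPKM, a call that was lost without Bcor-/- replicate 2 (-0.55, adjusted p = 0.209).

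DNA replication genes were MEP-higher for 24 of 31 members in both genotypes (backgrounds 16.5% in Bcor-/- and 22.5% in WT mice), with medians of -0.86 in Bcor-/- and -0.83 in WT mice. Cdc6, a licensing factor, was at 13.8 and 18.6 FPKM in LSK and 52.5 and 48.0 FPKM in MEP of Bcor-/- mice (-1.74 ± 0.15, adjusted p = 4.54e-05), and its WT difference was -1.71 ± 0.12. Mcm2, a helicase subunit, was at 101 and 109 against 206 and 198 FPKM (-1.09 ± 0.10, adjusted p = 6.48e-05). The single called change was that of Ccne1, cyclin E1, at 10.7 and 18.3 FPKM in Bcor-/- LSK, 5.67, 7.59 and 8.005 FPKM in WT LSK and 74.1 and 87.3 FPKM in Bcor-/- MEP (1.18 ± 0.20, adjusted p = 0.0139). The change of Ccne1 was not called without Bcor-/- replicate 2 (0.92, adjusted p = 0.124) and without WT replicate 1 (1.098, adjusted p = 0.0546). Of 10 tested CDK inhibitor and D-type cyclin genes (12 listed), 3 were LSK-higher in Bcor-/- mice, near the background of 24.3%, or 1 without replicate 1, and 6 in WT mice (background 27.6%). Cdkn1a, which encodes p21, was at 29.2 and 27.4 FPKM in Bcor-/- LSK and 9.50 and 11.3 FPKM in MEP (1.21 ± 0.30, adjusted p = 0.0072), and its call was lost without Bcor-/- replicate 1 (1.07, adjusted p = 0.0991).

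Of 26 mitosis genes, 3 were MEP-higher and 1 LSK-higher in Bcor-/- mice (backgrounds 16.5% and 24.3%), against 16 and 0 in WT mice (22.5% and 27.6%), with medians of -0.26 and -0.77. Without Bcor-/- replicate 1 the MEP-higher count was 1, and without replicate 2 it was 9. Ube2c, a ubiquitin-conjugating enzyme that works with the anaphase-promoting complex, was at 175 and 207 FPKM in Bcor-/- LSK and 151 and 149 FPKM in MEP, with 77.4, 97.6 and 77.4 FPKM in WT LSK and 133, 174 and 129 FPKM in WT MEP. The Ube2c difference was 0.19 ± 0.10 in Bcor-/- mice and -0.92 ± 0.08 in WT mice, a change of 1.11 ± 0.12, adjusted p = 0.00711. The change of Ube2c was not called without Bcor-/- replicate 2 (0.97, adjusted p = 0.0698). Cdk1, the kinase of mitotic entry, was at 77.5 and 87.4 FPKM in LSK and 76.9 and 81.6 FPKM in MEP of Bcor-/- mice and at 48.7, 54.5 and 45.5 FPKM in WT LSK. Changes toward LSK were called for 9 of the 26 genes (background 5.34%), and for 14, 0, 3, 7 and 10 when Bcor-/- replicates 1 and 2 and WT replicates 1, 2 and 3 were left out in turn. Mki67, the proliferation antigen, was MEP-higher in both genotypes, at 98.5 and 127 against 188 and 177 FPKM in Bcor-/- mice (-0.85 ± 0.11, adjusted p = 0.000304). In a fit of all 4 genotypes the call of Mki67 was lost (-0.85, adjusted p = 0.16), and at a fold above 2 as well.

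Immediate early genes, which respond to growth factors and to cell handling, were LSK-higher for 12 of 19 tested genes (20 listed) in Bcor-/- mice (background 24.3%) and 18 in WT mice (background 27.6%). Nr4a1, an orphan nuclear receptor, was at 72.9 and 129 FPKM in Bcor-/- LSK and 12.4 and 32.6 FPKM in MEP (2.05 ± 0.41, adjusted p = 0.00227), against 754, 248 and 454 FPKM in WT LSK. The count was 4, near the background, without Bcor-/- replicate 1. Interferon-stimulated genes were LSK-higher for 17 of 24 tested genes (26 listed) in Bcor-/- mice (background 24.3%) and 18 in WT mice (background 27.6%), with medians of 0.88 and 1.05. Oasl2, an oligoadenylate synthetase-like protein, was at 14.8 and 11.5 FPKM in Bcor-/- LSK and 2.04 and 1.86 FPKM in MEP (2.10 ± 0.20, adjusted p = 7.04e-05). Ifitm3, a membrane protein that restricts virus entry, had the single changed difference of this list (-1.09 ± 0.26, adjusted p = 0.0335). The change of Ifitm3 was not called without Bcor-/- replicate 1 (-1.31, adjusted p = 0.0642), without Bcor-/- replicate 2 (-0.86, adjusted p = 0.233), without WT replicate 1 (-0.89, adjusted p = 0.0965) and without WT replicate 2 (-1.13, adjusted p = 0.0585). The count of LSK-higher interferon-stimulated genes was 10 without Bcor-/- replicate 1. Of 10 MHC class II genes 3 were LSK-higher in Bcor-/- mice, or 2 without replicate 1, near the background of 24.3%, and 5 in WT mice.

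Cytokine receptors were LSK-higher for 21 of 27 tested genes (28 listed) in Bcor-/- mice (background 24.3%) and 23 in WT mice (background 27.6%). Csf2ra, a receptor subunit for the growth factor GM-CSF, was at 34.8 and 43.0 FPKM in Bcor-/- LSK and 7.29 and 5.19 FPKM in MEP (2.32 ± 0.22, adjusted p = 6.21e-05), and at 13.3, 18.2 and 13.3 FPKM in WT LSK. Ifngr1, a chain of the interferon gamma receptor, was MEP-higher in WT mice and LSK-higher in Bcor-/- mice. It was at 171 and 232 FPKM in Bcor-/- LSK and 94.7 and 101 FPKM in MEP, and at 76.6, 96.8 and 74.3 FPKM in WT LSK and 130.2, 135 and 136 FPKM in WT MEP, with no overlap between stages in either genotype. The Ifngr1 difference was 0.86 ± 0.14 in Bcor-/- mice (adjusted p = 0.000716) and -0.85 ± 0.11 in WT mice (adjusted p = 0.00012). The change was 1.71 ± 0.18, adjusted p = 0.00666. The change of Ifngr1 was not called without Bcor-/- replicate 2 (1.53, adjusted p = 0.0698). Over the list 3 changes were called toward LSK and 4 toward MEP (backgrounds 5.34% and 3.63%), and in all 4 without Bcor-/- replicate 1 and 0 without Bcor-/- replicate 2.

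The list of PRC1.1, the complex of Bcor, held 11 genes, with Bcl6 among them. Of these, 1 was LSK-higher and 1 MEP-higher in Bcor-/- mice (backgrounds 24.3% and 16.5%), against 1 and 2 in WT mice (27.6% and 22.5%). The LSK-higher gene in Bcor-/- mice was Bcl6, the repressor that recruits Bcor and not a subunit of the complex. Bcl6 was at 8.05 and 10.5 FPKM in LSK and 1.80 and 1.40 FPKM in MEP (1.82 ± 0.25, adjusted p = 0.000308), with 4.05, 4.07 and 3.88 FPKM in WT LSK. Usp7, a deubiquitinase of the complex, was at 51.8 and 59.9 against 90.4 and 90.1 FPKM (-0.84 ± 0.09, adjusted p = 0.000103). Kdm2b, which brings the complex to CpG islands, was at 26.6 and 31.8 FPKM in LSK and 34.2 and 37.0 FPKM in MEP, a difference of -0.43 ± 0.10 that was not called. Among PRC2 and canonical PRC1 genes 6 were LSK-higher and 2 MEP-higher of 21, near the same backgrounds. The latter were Ezh2, the H3K27 methyltransferase, at 60.1 and 76.8 against 103 and 109 FPKM, and Suz12. Phc1, a polyhomeotic subunit, was called LSK-higher in WT mice and not in Bcor-/- mice, at 15.5 and 12.2 FPKM in Bcor-/- LSK and 12.2 and 11.98 FPKM in MEP, 24.9, 18.9 and 24.3 FPKM in WT LSK and 8.82, 7.27 and 9.81 FPKM in WT MEP. Its change was -1.13 ± 0.15, adjusted p = 0.00837. The change of Phc1 was not called without Bcor-/- replicate 2 (-0.99, adjusted p = 0.0838). The other change called among these 21 genes was toward LSK, that of Phf19 (0.62 ± 0.17, adjusted p = 0.0472). The change of Phf19 was not called without Bcor-/- replicate 1 (0.64, adjusted p = 0.126), without Bcor-/- replicate 2 (0.60, adjusted p = 0.22), without WT replicate 1 (0.56, adjusted p = 0.138) and without WT replicate 2 (0.58, adjusted p = 0.103).

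Of 8 tested genes of DNA methylation (9 listed), 4 were LSK-higher and 1 MEP-higher in Bcor-/- mice (backgrounds 24.3% and 16.5%), against 4 and 2 in WT mice (27.6% and 22.5%). Dnmt3a, a de novo DNA methyltransferase, was LSK-higher in Bcor-/- mice, at 13.9 and 14.1 against 7.56 and 7.65 FPKM (0.65 ± 0.14, adjusted p = 0.00294). Its call was lost after joint quantile normalisation, where the difference of 0.462 missed the fold, and at a fold above 2. Of the Bcl2 family 17 of 20 genes were tested, and 4 were LSK-higher and 4 MEP-higher in each genotype, near the backgrounds of 24.3% and 16.5% in Bcor-/- mice. Without Bcor-/- replicate 1 the LSK-higher count was 1. Bcl2l11, which encodes the cell death inducer Bim, was at 5.91 and 7.91 FPKM in LSK and 12.1 and 15.1 FPKM in MEP of Bcor-/- mice and 18.3, 11.2 and 13.8 FPKM in WT LSK. In the family 2 changes were called toward LSK, those of the cell death genes Bak1 (0.70 ± 0.18, adjusted p = 0.0381) and Bid (0.75 ± 0.12, adjusted p = 0.0116), and 1 toward MEP, that of Bcl2l11 (-1.29 ± 0.26, adjusted p = 0.0198), with backgrounds of 5.34% and 3.63%. The change of Bcl2l11 was not called without Bcor-/- replicate 1 (-1.25, adjusted p = 0.0787). The changes of Bak1, Bid and Bcl2l11 were not called without Bcor-/- replicate 2 (0.38, 0.61 and -1.34, adjusted p = 0.101 to 0.222). The changes of Bak1 and Bcl2l11 were not called without WT replicate 1 (0.64 and -1.05, adjusted p = 0.052 to 0.117). The change of Bak1 was not called without WT replicate 2 (0.68, adjusted p = 0.0791).

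**Figure D4:**
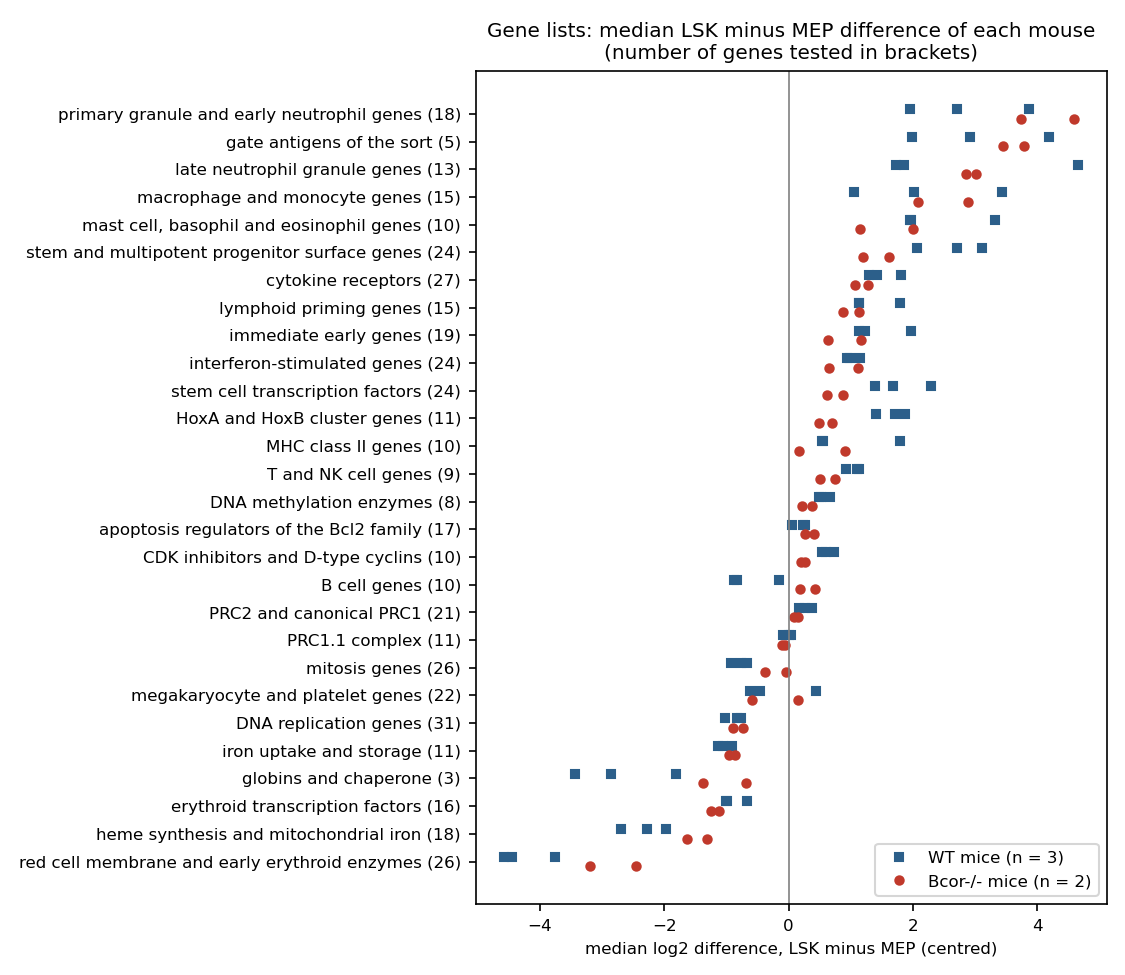
Median stage difference (horizontal axis, centred log2 LSK minus MEP) of 28 gene lists in each WT mouse (blue squares, n = 3) and each Bcor-/- replicate (red circles, n = 2), with the number of tested genes in brackets. The Bcor-/- points lay closer to 0 than the WT points for the red cell, heme, Hox, stem cell transcription factor and cytokine receptor lists, and among or near them for the replication and PRC1.1 lists. For the list of erythroid transcription factors, which also held cofactors and Trim58, the Bcor-/- points (-1.244 and -1.113) lay further from 0 than the WT points (-0.982, -0.998 and -0.661).

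Other genes among the 12 largest differences in each direction in Bcor-/- mice were not yet described. Fcnb, ficolin B of neutrophil precursors, was at 339.6 and 421 FPKM in LSK and 4.85 and 1.87 FPKM in MEP (6.38 ± 0.78, adjusted p = 0.000185), and at 21.7, 86.5 and 20.4 FPKM in WT LSK. Ly6c2, a surface gene of monocytes and their progenitors, was at 744 and 992 against 15.1 and 11.2 FPKM (5.79 ± 0.73, adjusted p = 0.000227), and Hp, haptoglobin, at 270.2 and 383 against 7.36 and 3.599 FPKM (5.55 ± 0.77, adjusted p = 0.000338). Prtn3, proteinase 3, whose model overlaps Plppr3 on the other strand, Ms4a3, a marker of granulocyte-monocyte progenitors, Wfdc21, and Clec12a, a myeloid lectin, had differences of 5.29, 5.28, 5.23 and 5.19. For each of these 7 genes both Bcor-/- LSK libraries were above all WT LSK libraries. On the MEP side, Tspo2, an erythroid translocator protein, was at 10.6 and 15.8 FPKM in LSK and 99.7 and 126 FPKM in MEP (-3.17 ± 0.38, adjusted p = 0.000167). Ank1, ankyrin of the red cell skeleton, was at 4.53 and 12.8 against 67.3 and 67.9 FPKM (-3.13 ± 0.28, adjusted p = 5.42e-05). Cldn13, a claudin of erythroid cells, Prss50, a protease, and Atp1b2, a sodium pump subunit, had differences of -3.16, -3.12 and -3.11, against -5.69, -4.80 and -5.30 in WT mice.

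Over all genes, 1005 stage differences were changed between genotypes, 598 toward LSK (5.34%) and 407 toward MEP (3.63%). Of WT LSK-higher genes, 339 were changed toward MEP and 73 further toward LSK. Of WT MEP-higher genes, 368 were changed toward LSK and 5 further toward MEP. The WT difference is itself part of the change, so choosing genes by it favours changes toward smaller differences. How many would be seen without a change was not tested. These counts rested on few mice. The number called was 571 without Bcor-/- replicate 1, 10 without Bcor-/- replicate 2, 209, 685 and 1157 without WT replicates 1, 2 and 3, and 117 when the double knockout mice were added to the fit. The 2 Bcor-/- against 3 WT differences of a single gene cannot give an exact permutation p below 0.1.

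The largest changes toward LSK held genes of several kinds. Rgcc, a regulator of the cell cycle, was at 92.3 and 116 FPKM in Bcor-/- LSK and 10.9 and 12.6 FPKM in MEP, with 30.1, 24.3 and 21.6 FPKM in WT LSK and 22.8, 31.4 and 18.5 FPKM in WT MEP. The Bcor-/- groups did not overlap and the WT groups did. Its change was 2.95 ± 0.19, adjusted p = 0.00131, and it was called without each of the Bcor-/- and WT mice in turn. Acp5, tartrate-resistant acid phosphatase, was MEP-higher in WT and LSK-higher in Bcor-/- mice, at 13.3 and 11.2 FPKM in Bcor-/- LSK, 3.17 and 4.13 FPKM in Bcor-/- MEP, 4.52, 6.91 and 5.54 FPKM in WT LSK and 15.2, 29.5 and 11.8 FPKM in WT MEP. Mgl2, a lectin of myeloid cells, was at 37.2 and 53.3 FPKM in Bcor-/- LSK and 3.05, 6.804 and 3.69 FPKM in WT LSK, and at 0.835 and 0.65 FPKM in Bcor-/- MEP. Sgms2, a sphingomyelin synthase, was at 20.5 and 31.7 against 0.537 and 0.296 FPKM in Bcor-/- mice and 1.29, 3.66 and 1.98 FPKM in WT LSK. Mogat2, an acyltransferase, was at 17.02 and 24.7 FPKM in Bcor-/- LSK and 1.19, 4.64 and 2.12 FPKM in WT LSK, and Cldn15, a claudin, at 49.8 and 65.5 and 2.05, 7.67 and 2.88 FPKM. For these 4 genes every Bcor-/- LSK value was above every WT LSK value. Sphk1, sphingosine kinase 1, was MEP-higher in both genotypes, at 16.2 and 33.6 FPKM in LSK and 136 and 148 FPKM in MEP of Bcor-/- mice, with 1.54, 2.71 and 3.72 FPKM in WT LSK. Asb17os, which overlaps Asb17 on the other strand, was MEP-higher in both genotypes, at 6.26 and 8.08 FPKM in LSK and 38.8 and 38.4 FPKM in MEP of Bcor-/- mice. The changes of Mogat2, Cldn15 and Asb17os were not called without Bcor-/- replicate 1 (2.998, 2.88 and 2.93, adjusted p = 0.0562 to 0.0986). The changes of Acp5, Mgl2, Sgms2, Mogat2, Cldn15, Sphk1 and Asb17os were not called without Bcor-/- replicate 2 (3.25, 2.45, 2.37, 2.55, 2.61, 2.40 and 2.58, adjusted p = 0.0609 to 0.199). The changes of Sgms2, Cldn15 and Asb17os were not called without WT replicate 1 (2.49, 2.23 and 2.44, adjusted p = 0.0546 to 0.0872). The change of Cldn15 was not called without WT replicate 3 (2.74, adjusted p = 0.0504).

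Toward MEP, the largest changes included Nkx2-3, Hoxa10, Hoxa5 and Ifitm1, described above. Dusp5, a phosphatase of the kinase ERK, was at 9.805 and 15.3 FPKM in Bcor-/- LSK and 3.37 and 4.17 FPKM in MEP, with 80.4, 43.4 and 50.8 FPKM in WT LSK, and its change was -1.93 ± 0.35, adjusted p = 0.0151. Nlrc3, a regulator of innate immune signalling, was at 3.74 and 2.30 FPKM in Bcor-/- LSK and 13.3, 11.6 and 10.8 FPKM in WT LSK. Podxl, podocalyxin, was at 1.84 and 0.984 FPKM in LSK and 12.4 and 2.60 FPKM in MEP of Bcor-/- mice, with MEP replicate 1 far above the others, and at 0.479, 0.305 and 0.907 FPKM in WT MEP. 5930403L14Rik was at 3.87 and 2.61 FPKM in LSK and 2.48 and 2.11 FPKM in MEP of Bcor-/- mice, with 4.85, 4.65 and 5.97 FPKM in WT LSK and 0.15, 0.052 and 0.292 FPKM in WT MEP. Gm5643 was at 0.641 and 5.26 FPKM in Bcor-/- LSK and 21.4 and 27.7 FPKM in MEP, and at 37.5, 41.7 and 52.2 FPKM in WT LSK. Mir703 was listed at 0 in both Bcor-/- LSK libraries and at 293 and 125 FPKM in MEP, and in WT mice at 0 in 5 libraries and 338 FPKM in 1 LSK library. It overlaps Cfap299 on the other strand, a listed 0 may be a failed estimate, and its stage call was lost without either Bcor-/- replicate (-7.12 and -8.36). The changes of Dusp5, Gm5643 and Mir703 were not called without Bcor-/- replicate 1 (-1.74, -2.07 and -9.77, adjusted p = 0.0707 to 0.166). The changes of Dusp5, Nlrc3, Gm5643, Mir703 and 5930403L14Rik were not called without Bcor-/- replicate 2 (-2.12, -1.93, -3.66, -11.01 and -1.93, adjusted p = 0.0695 to 0.212). The changes of Dusp5, Podxl, Gm5643 and Mir703 were not called without WT replicate 1 (-1.88, -2.02, -3.04 and -11.79, adjusted p = 0.058 to 0.0835). The change of Mir703 was not called without WT replicate 2 (-11.79, adjusted p = 0.0551). The change of Mir703 was not called without WT replicate 3 (-7.59, adjusted p = 0.0607).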

How the data were processed

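Polyadenylated RNA of sorted LSK and MEP cells was sequenced, and the authors deposited FPKM values per gene, in 1 table of 10 LSK and 1 table of 10 MEP libraries with 24315 genes each. The submitters' processing notes name STAR 2.5.1b, SAMtools 1.9, Cufflinks 2.2.1 and the build mm9. The tables may have been normalised separately, and strandedness and read counts were not given in the sources used here. Depth is therefore unknown.

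Genes with a mean FPKM of at least 1 over the 4 Bcor-/- libraries (11201) were kept. From the deposited values, log2(FPKM + 1) of MEP was subtracted from that of LSK in each mouse, and each mouse's median (0.16 and 0.14 in Bcor-/- mice) was removed. The differences are on this scale and understate the change of low genes. limma 3.58.1 (R 4.3.3) with a mean-variance trend was fitted to 8 replicates (3 WT, 3 Dnmt3a-/-, 2 Bcor-/-; double knockout mice left out) with 1 mean per genotype and Benjamini-Hochberg adjustment over all 11201 genes. Calls needed an adjusted p under 0.05 and a fold above 1.5. The spread is that between mice, and with 2 Bcor-/- replicates it rested mainly on the other genotypes. The mouse names in the labels paired LSK with MEP. The deviations of the paired libraries from their group means correlated at 0.14 in Bcor-/- mice, 0.09 to 0.11 in WT mice and 0.02 to 0.215 in Dnmt3a-/- mice. With 2 replicates both Bcor-/- mice give the same value by construction. The steps were tested on simulated data.

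The genes and the 28 lists were chosen with earlier results of these data known. Genes named by size had to meet a minimum of 5 FPKM. The 12 largest differences also needed the same sign in both Bcor-/- mice. Both Bcor-/- libraries of the higher cell type had to lie above both of the other. The 10 largest changes also needed no overlap between the Bcor-/- and WT differences. Such separation in these genes is therefore part of their choice, and every ranking of the 12 or 10 largest holds within these limits. Named are the 12 largest called differences in each direction, the 10 largest called changes in each direction, members of the lists, and genes of the sort and of the genotype. Names outside these rules were chosen after their values were seen. Alternatives were the pseudocount, the filter, centring, joint quantile normalisation, the samples in the fit, no pairing, thresholds, and leaving out each mouse. Figures were drawn with matplotlib 3.10.9 (Python 3.11.15). Promoters came from RefSeq (GRCm38.p6), whose build differs from that of the deposited values, so coordinates are given for these promoters only and belong to that assembly. Results for some genes are not reported here.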

Additional observations from a re-analysis of the deposited data

Results flagged for a closer look

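The same contrast, LSK against MEP, differed between genotypes for 1005 genes by limma's test of the change itself. The 10 largest changes toward LSK in Bcor-/- mice, on the log2 scale, were those of Acp5 (2.996), Rgcc (2.95), Sphk1 (2.85), Rhd (2.81), Sgms2 (2.81), Mgl2 (2.79), Mogat2 (2.78), Asb17os (2.76), Cldn15 (2.75) and Ly6d (2.69). The 10 largest toward MEP were those of Mir703 (-10.39), Gm5643 (-2.86), Nkx2-3 (-2.53), Ifitm1 (-2.30), 5930403L14Rik (-2.06), Hoxa10 (-2.05), Podxl (-2.02), Dusp5 (-1.93), Nlrc3 (-1.86) and Hoxa5 (-1.85). Each of these calls but that of Rgcc was lost when at least 1 of the Bcor-/- or WT mice was left out, as given beside the gene. No group held the 4 samples that a test for single outlying libraries needs.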

How the results depend on the processing

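The stage difference in Bcor-/- mice gave 4563 calls, 3742 to 4601 with single mice left out and 4509 with no replicate block. The WT difference gave 5610, 5338 to 5792 and 5604. A fold above 2 gave 2368 and 3254. The change between genotypes was far less stable. Its 1005 calls became 10 to 1157 with single mice left out, 744 with no replicate block, 528 in a fit of WT and Bcor-/- mice alone, 117 with all 4 genotypes, 1806 by unadjusted p and 410 at a fold above 2. The LSK-higher share of Bcor-/- calls was 59.6%, 72.1% without centring, 48.9% after quantile normalisation and 72.6% at a fold above 2. In WT mice it was 55.0%, 65.0% without centring and 64.8% at a fold above 2. Changes toward LSK made up 59.5% of the calls, 48.2% after quantile normalisation, 71.5% with no replicate block and 70.1% with all 4 genotypes. The Bcor transcript, at -0.04, turned to 0.001 without the filter, 0.05 at a minimum of 5 FPKM, 0.115 without centring and 0.023 without Bcor-/- replicate 2 (-0.099 without replicate 1), and 5930403L14Rik, at 0.20, to -0.355 after quantile normalisation. None of these was called. For named genes, 66 values of the stage difference fell short of the threshold under an alternative, 6 passed it newly and 1649 kept direction and call. For their changes between genotypes, 83 values fell short of the threshold and 328 kept direction and call. The cause was not tested. With 1 Bcor-/- mouse left out, the other is assumed to vary like the remaining genotypes, and a fit of the Bcor-/- mice alone gives no WT value. Unknown depth limits the reading of low FPKM.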
